A study of Mus musculus with 12 samples.

Results

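The response of osteoclasts to soluble products of eosinophils was read from 8 of the 12 bulk RNA-seq. libraries of the study, chosen by their treatment labels, namely 4 of osteoclasts stimulated with eosinophil supernatant (OCsEoS) and 4 of untreated osteoclasts (OCsCtr). The cultures started from bone marrow-derived monocytes (BMMs), taken from WT mice of the BALB/c strain and differentiated with M-CSF and RANKL. The supernatant was given at a 1:2 dilution from day 0 for 48 h and came from eosinophils of IL-5tg/4get mice, which carry an IL-5 transgene and a reporter of IL-4 expression. All cells were then washed and fed with fresh medium, and RNA was taken on day 3, so the libraries describe osteoclasts about 1 day after the supernatant was removed. The 4 replicates of a group are described as biological replicates. The OCsCtr cultures received no conditioned medium of any cell, so that in these libraries a response to eosinophil products and a response to conditioned medium in general cannot be told apart. The study used supernatant of BMMs as such a control in other assays. It reported that this supernatant left osteoclast formation and osteoclast-associated genes unaffected. Those assays were not analysed here. The remaining 4 libraries were osteoclasts stimulated with the eosinophils themselves (OCsEo), and they entered the fit of the spread and 1 direct comparison with OCsEoS.

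Osteoclasts are large cells with several nuclei that form by the fusion of monocyte-like precursors under M-CSF and RANKL, seal off a patch of bone, acidify it and dissolve the mineral and collagen. Precursors that do not take this path remain macrophages, which engulf dying cells, sample antigen and release chemokines. Eosinophils are granulocytes that store toxic basic proteins and peroxidase in granules and release cytokines of type 2 immunity, including IL-4. The comparison asks which genes differ when precursors meet what eosinophils release, with no eosinophil added to the culture.

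Total counts per library ranged from 27837530 to 34540511 in OCsEoS and from 28014177 to 34266435 in OCsCtr, and 3 counts, taken as the floor of detection, corresponded to 0.0868 to 0.107 CPM (counts scaled to the size of the library) in OCsEoS. Of the 47643 genes in the table, 13681 had enough counts to be tested, which together took 99.96% or more of every library. OCsEoS 4 stood somewhat apart, with 14626 genes detected against 15212 to 16173 in the other 7 libraries, and OCsCtr 1 had 1.43% of its counts on mitochondrially encoded genes against 0.487% to 0.898% in the others. Values per library are given below in the order of replicates 1 to 4, and n = 4 in each group.

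Eosinophil supernatant changed many genes by a small amount. Genes were counted as changed, or called, when the adjusted p was under 0.05 and the log2 fold change was beyond 0.5 in either direction. On this rule 1058 of the genes tested (7.73%) were called, 496 (3.63%) higher and 562 (4.11%) lower. The shares of 3.63% and 4.11% are the background for the counts of called list members below. Lists with a share near these are given as description only. With the adjusted p alone, 1620 (11.8%) were higher and 1531 (11.2%) lower, and this is the background for the counts below that use it. The median absolute log2 fold change of the called genes was 0.64, and 80 genes rose and 80 fell by more than 1 on the log2 scale. In 419 of the genes called higher and 503 of those called lower the 4 OCsEoS libraries did not overlap with the 4 OCsCtr libraries. Over all genes tested 12.6% were separated upward and 13.1% downward. The genes were called on these same libraries, which favors separated genes, so the counts in called genes are no further support. The genes called higher took 2.29% to 2.50% of the counts of an OCsCtr library and 3.35% to 3.97% of an OCsEoS library. Those called lower took 7.42% to 8.36% of the counts in OCsCtr and 4.05% to 5.53% in OCsEoS. By library, the median changes were 0.71, 0.49, 0.65 and 0.77 on the log2 scale for the genes called higher and -0.70, -0.50, -0.67 and -0.84 for those called lower. The sign of these medians was fixed by the choice of the genes, and OCsEoS 2 was the library nearest to the controls and OCsEoS 4 the farthest. Without any one library 413 to 623 genes were called higher and 436 to 722 lower, and 262 of the 496 and 296 of the 562 were called whichever library was left out.

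The genes called higher were shorter than those called lower, with median gene lengths of 2418.5 and 5292.5 bases against 3634 for all genes tested. After the trend of each library with gene length was removed (length-adjusted values), 465 genes were called higher and 438 lower, of which 365 and 381 were also called without this step. Genes of the text that lose their call after this adjustment are marked. The part of gene length in the other differences was not tested.

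**Figure D1:**
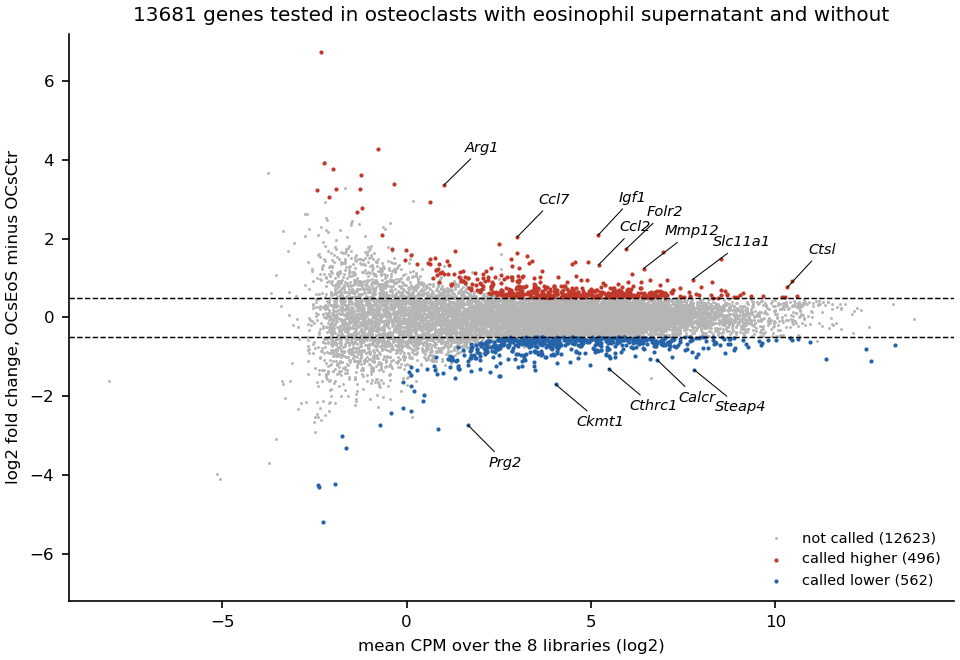
Each point is 1 of the 13681 genes tested, with its mean CPM over the 8 libraries on a log2 scale across and its log2 fold change, OCsEoS minus OCsCtr, upward. Dashed lines mark log2 fold changes of -0.5 and 0.5, colored points are the 496 genes called higher and the 562 called lower, and some genes of the text are named.

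Rises and falls were ranked among called genes with a mean of at least 2 CPM over the 8 libraries. Separated groups and a symbol that is not that of a predicted gene were also required. Separation was thus a condition of the choice and is no further support for the genes ranked here. The largest fitted rise in this ranking was that of Arg1, which passed the limit on the mean only through the OCsEoS libraries. It encodes arginase 1, an enzyme that breaks down arginine and is induced in macrophages by IL-4 (GRCm38 chromosome 10 from 24915208 to 24927470). It had 0.555, 0.178, 0.265 and 0.435 CPM in OCsCtr and 5.37, 4.17, 2.64 and 2.57 CPM in OCsEoS, a log2 fold change of 3.36 ± 0.50 (SE, adjusted p = 8.47e-05). All OCsCtr libraries were under 1 CPM and all OCsEoS libraries were above 2 CPM. Igf1, a growth factor for bone-forming cells that is also made by macrophages (chromosome 10 from 87858265 to 87937042), had 13.7, 11.2, 15.3 and 15.6 CPM in OCsCtr and 79.2, 48.4, 52.7 and 57.3 CPM in OCsEoS, so that even the lowest OCsEoS library was about 3 times the highest OCsCtr library. Its log2 fold change was 2.09 ± 0.15 (SE, adjusted p = 8.2e-08). Folr2, the folate receptor of tissue-resident macrophages (chromosome 7 from 101839990 to 101845331), had 34.8, 19.8, 26.6 and 33.1 CPM in OCsCtr and 128, 72.8, 96.3 and 79.9 CPM in OCsEoS, a log2 fold change of 1.72 ± 0.19 (SE, adjusted p = 7.48e-06). Its OCsEoS libraries were spread from 72.8 to 128 CPM. Serpinb9b, a protease inhibitor, rose from 2.43 ± 0.442 to 8.86 ± 2.27 CPM (SD), and Qpct, which encodes the enzyme that cyclizes the first residue of chemokines such as CCL2, rose from 4.81 ± 1.65 to 14.3 ± 1.29 CPM (SD), with log2 fold changes of 1.87 ± 0.21 (SE, adjusted p = 7.83e-06) and 1.57 ± 0.18 (SE, adjusted p = 1.08e-05). Mgst1, a glutathione transferase of membranes, rose by 1.36 ± 0.15 (SE, adjusted p = 6.08e-06), and Fabp4, a fatty acid carrier of macrophages and fat cells, rose by 1.34 ± 0.29 (SE, adjusted p = 0.00223) at a low level of 1.25 ± 0.393 CPM in OCsCtr and 3.15 ± 0.232 CPM in OCsEoS (SD).

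Among the largest falls, Ckmt1, the creatine kinase of mitochondria (chromosome 2 from 121357714 to 121363737), had 20.7, 24.4, 24.2 and 31.6 CPM in OCsCtr and 8.15, 8.25, 9.82 and 4.72 CPM in OCsEoS, a log2 fold change of -1.71 ± 0.20 (SE, adjusted p = 8.59e-06). Steap4, a metal reductase that is abundant in osteoclasts (chromosome 5 from 7960457 to 7982213), had 252, 314, 330.3 and 378 CPM in OCsCtr and 118, 163, 141 and 84.5 CPM in OCsEoS, a log2 fold change of -1.33 ± 0.15 (SE, adjusted p = 7.74e-06). Separated groups were a condition of the choice here too, and OCsEoS 4 was the lowest library for both genes. St8sia6, a sialyltransferase, fell from 8.50 ± 1.16 to 3.01 ± 1.08 CPM (SD), and Capn6, a calpain without protease activity, fell from 15.997 ± 3.06 to 6.33 ± 2.84 CPM (SD), by 1.49 and 1.34 on the log2 scale (adjusted p = 0.000192 and 0.000789). The transcription factor gene Zbtb10 fell by 1.36 on the log2 scale (SE 0.24, adjusted p = 0.000395). Hist1h2al and Hist1h4h, a pair of histone genes, fell by 1.27 and 1.39 on the log2 scale (adjusted p = 7.15e-05 and 0.0059), but histone genes are near copies of each other and reads of one may be counted for another. The largest fall in the same ranking was that of Prg2, a gene of eosinophil granules, described with the eosinophil markers further on. It passed the limit on the mean only through the OCsCtr libraries.

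Genes that define osteoclasts were lower with supernatant. Of 12 osteoclast marker genes, all 12 were below OCsCtr at an adjusted p under 0.05 and 8 were called lower, with a median log2 fold change of -0.64 against -0.01 over all genes tested. The list holds genes that the study had reported as lower in these same libraries, so its count is not an independent result. Calcr, the receptor for calcitonin, the hormone that halts osteoclasts (chromosome 6 from 3685680 to 3764714), had 129, 153, 155 and 167 CPM in OCsCtr and 73.3, 90.996, 68.03 and 53.2 CPM in OCsEoS. Its log2 fold change was -1.08 ± 0.13 (SE, adjusted p = 1.13e-05), with no overlap between the groups. Under the threshold were the members Dcstamp, a membrane protein needed for cell fusion, at -0.32 (adjusted p = 0.0137), Car2, the carbonic anhydrase that supplies protons, at -0.33 (adjusted p = 0.0126), Nfatc1, the master transcription factor, at -0.37 (adjusted p = 0.00174), and Tnfrsf11a, which encodes RANK itself, at -0.26 (adjusted p = 0.0107). In a bulk library, fewer osteoclasts and less of these transcripts per osteoclast cannot be told apart.

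Of the 16 tested receptors and adaptors of osteoclasts, 6 were called lower and 1 higher (median -0.08). Siglec15, a sialic acid receptor that signals through DAP12 and promotes fusion, had 47.5, 57.1, 58.7 and 59.9 CPM in OCsCtr and 27.1, 36.7, 31.9 and 22.1 CPM in OCsEoS, a log2 fold change of -0.92 ± 0.13 (SE, adjusted p = 5.38e-05). Among the 38 tested genes of RANK signal transduction, 4 were called lower and 1 higher (median -0.10), so most of the pathway was not called. Gab2, the docking adaptor that binds RANK, had 29.6, 31.9, 30.6 and 32.9 CPM in OCsCtr and 17.3, 20.5, 16.7 and 14.6 CPM in OCsEoS, a log2 fold change of -0.86 ± 0.14 (SE, adjusted p = 0.000178). Src, the kinase that organizes the ruffled border, had 171, 168, 178 and 162 CPM in OCsCtr and 107, 117, 111 and 95.5 CPM in OCsEoS, a log2 fold change of -0.66 ± 0.07 (SE, adjusted p = 4.27e-06). For both genes the OCsEoS libraries all lay below the OCsCtr libraries.

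Transcription factors that promote and those that block osteoclast formation were counted apart. Of 27 tested promoting factors 3 were called lower and 1 higher, with a median of -0.07. Of 17 tested blocking factors 3 were called higher and 0 lower, with a median of 0.23. Over all genes tested 4.11% were called lower and 3.63% higher. Id1 and Id3 encode inhibitors of basic helix-loop-helix factors that respond to BMP signals. Id1 had 6.90, 4.87, 6.36 and 3.98 CPM in OCsCtr and 12.96, 7.79, 13.2 and 23.2 CPM in OCsEoS, a log2 fold change of 1.37 ± 0.28 (SE, adjusted p = 0.00153). Id3 had 38.3, 35.96, 38.8 and 39.8 CPM in OCsCtr and 60.5, 48.6, 63.6 and 50.3 CPM in OCsEoS, a log2 fold change of 0.54 ± 0.09 (SE, adjusted p = 0.000342). The groups did not overlap for either gene. For Id3 the value was 0.48 without OCsEoS 3 and 0.45 when length-adjusted, and neither passes the threshold. Among the promoting factors, Prdm1, which encodes the repressor BLIMP1 that silences blocking factors, fell from 82.8 ± 4.82 to 56.6 ± 7.71 CPM (SD) and Ppargc1b, a coactivator of mitochondrial genes, fell from 22.8 ± 1.17 to 15.4 ± 2.55 CPM (SD). Their log2 fold changes were -0.55 ± 0.09 (SE, adjusted p = 0.000217) and -0.57 ± 0.12 (SE, adjusted p = 0.00218). Prdm1 was at -0.49 without OCsEoS 3 and -0.48 when length-adjusted, and Ppargc1b at -0.47 without OCsEoS 4, no longer called.

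**Figure D2:**
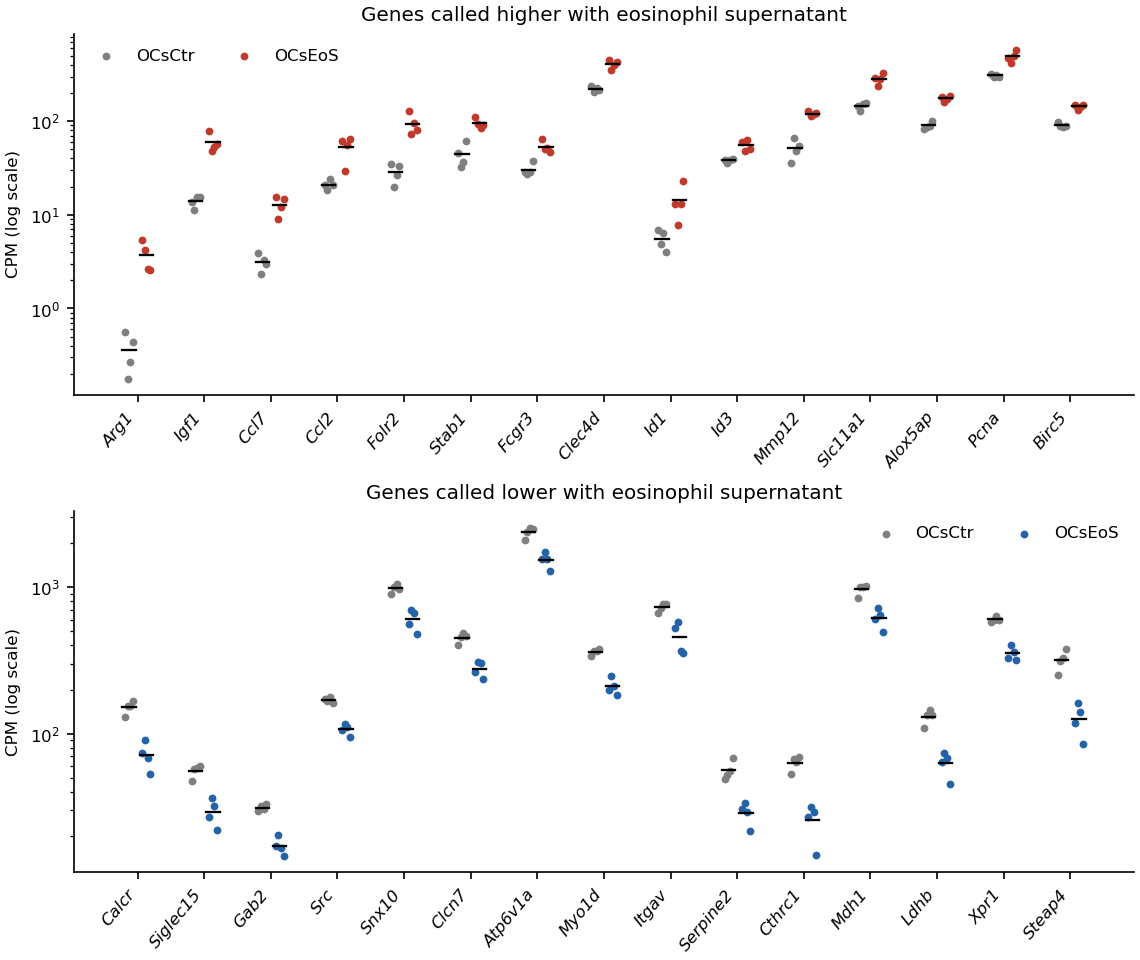
CPM on a log scale of 15 genes called higher and 15 called lower, with 1 point for each of the 4 OCsCtr and 4 OCsEoS libraries and a black bar at the group mean. In every gene shown the points of the groups do not overlap.

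Acid secretion dissolves bone mineral. Of 26 tested genes of acid secretion 8 were called lower and 0 higher, and 21 were lower at an adjusted p under 0.05, with a median log2 fold change of -0.43. Snx10, a sorting nexin needed to carry vesicles to the ruffled border (chromosome 6 from 51523901 to 51590679), had 895, 1003, 1043 and 975 CPM in OCsCtr and 564, 693, 665 and 481 CPM in OCsEoS, a log2 fold change of -0.70 ± 0.09 (SE, adjusted p = 2.26e-05). Clcn7, the chloride and proton exchanger of the resorption space, had 402, 456, 489 and 462 CPM in OCsCtr and 264, 309, 302 and 237 CPM in OCsEoS, a log2 fold change of -0.70 ± 0.09 (SE, adjusted p = 2.27e-05). Atp6v1a, the catalytic subunit of the proton pump, fell from 2379.8 ± 204 to 1532 ± 185 CPM (SD), by 0.64 on the log2 scale (adjusted p = 1.39e-05). Plekhm1, an adaptor for the secretion of lysosomes, was at -0.57 ± 0.06 (SE, adjusted p = 5.58e-06), and just under the threshold when length-adjusted. Every member named here was lower in all 4 OCsEoS libraries than in any OCsCtr library. The number called lower was 5 without OCsEoS 4, 5 when length-adjusted and 13 without OCsCtr 1.

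Of 38 tested genes of the podosome and sealing zone, the actin ring by which osteoclasts grip bone, 9 were called lower and 0 higher (median -0.28). Myo1d, a motor that links membranes to actin, had 339.6, 369, 367 and 378 CPM in OCsCtr and 198, 248, 210.0 and 184 CPM in OCsEoS, a log2 fold change of -0.79 ± 0.08 (SE, adjusted p = 2.77e-06). Itgav, the alpha chain of the vitronectin receptor, had 663, 718, 769 and 769 CPM in OCsCtr and 526, 577, 366 and 354 CPM in OCsEoS, a log2 fold change of -0.68 ± 0.12 (SE, adjusted p = 0.000325), with OCsEoS 3 and 4 well below OCsEoS 1 and 2. Itga2, the alpha chain of a collagen receptor, fell from 12.2 ± 1.67 to 5.17 ± 0.641 CPM (SD), by 1.24 on the log2 scale (adjusted p = 0.000201). Of 19 tested genes of cell fusion, 5 were called lower and 1 higher, but the number lower was 2 without OCsEoS 4 and 3 without OCsCtr 3. Myo10, a motor of the thin protrusions that precede fusion, was at -0.55 ± 0.12 (SE, adjusted p = 0.00191), and at -0.39 when length-adjusted, and it was not called without OCsEoS 3.

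Genes of matrix degradation did not all move one way. Of 21 tested, 6 were called lower and 3 higher, with a median of 0.02. Serpine2, an inhibitor of thrombin and plasmin activators, fell from 56.2 ± 8.66 to 28.8 ± 4.99 CPM (SD), by 0.97 on the log2 scale (adjusted p = 2.58e-05). Mmp12, the elastase of macrophages (chromosome 9 from 7344381 to 7369499), had 35.7, 65.6, 48.6 and 54.9 CPM in OCsCtr and 128, 112, 119.9 and 123 CPM in OCsEoS, a log2 fold change of 1.24 ± 0.12 (SE, adjusted p = 2.26e-06). Its OCsEoS libraries were close together and all above the highest OCsCtr library. Plaur, the urokinase receptor, rose from 41.6 ± 8.69 to 67.7 ± 9.93 CPM (SD), and Adam8, a membrane protease, rose from 196 ± 26.1 to 293 ± 28.5 CPM (SD), with log2 fold changes of 0.70 ± 0.12 (SE, adjusted p = 0.000397) and 0.58 ± 0.09 (SE, adjusted p = 0.000132).

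Lysosomal genes were split as well, with 3 of 35 tested members called lower and 2 higher, and 16 lower and 7 higher by the adjusted p alone. The number called lower was 6 without OCsCtr 1. Glb1, a hydrolase that takes sugars from glycolipids and glycosaminoglycans, was at -0.72 (adjusted p = 2.68e-05), and it overlaps a neighboring gene in the annotation. Ctsl, a cathepsin of the endosome, had 995, 793, 949.7 and 1079 CPM in OCsCtr and 1746, 1365, 1627 and 1751 CPM in OCsEoS, a log2 fold change of 0.77 ± 0.09 (SE, adjusted p = 9.95e-06). All OCsEoS libraries were above all OCsCtr libraries for Ctsl. Of the 22 tested solute and ion transporters of osteoclasts, 4 were called lower and 2 higher. Xpr1, which exports phosphate, had 581, 593, 634 and 600.5 CPM in OCsCtr and 330.1, 403, 362 and 319.9 CPM in OCsEoS, a log2 fold change of -0.77 ± 0.07 (SE, adjusted p = 1.35e-06). Slc37a2, a sugar phosphate transporter abundant in osteoclasts, was at -0.55 ± 0.06 (SE, adjusted p = 7.45e-06), and just under the threshold without OCsEoS 4 or when length-adjusted.

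Genes by which osteoclasts and bone-forming osteoblasts communicate were also divided, with 5 of 19 tested members called lower and 3 higher (median -0.31). Cthrc1, a secreted factor that stimulates bone formation (chromosome 15 from 39076932 to 39087121), had 53.3, 66.9, 64.4 and 68.9 CPM in OCsCtr and 27.1, 31.8, 29.3 and 14.8 CPM in OCsEoS, a log2 fold change of -1.30 ± 0.17 (SE, adjusted p = 3.31e-05). The lowest OCsCtr library was well above the highest OCsEoS library. Lif, a cytokine of the IL-6 family, Efnb2, a ligand of Eph receptors, and Sema4d, a semaphorin that restrains osteoblasts, fell by 0.70, 0.69 and 0.64 on the log2 scale (adjusted p = 0.00221, 0.00717 and 0.000237). In the other direction, Igfbp4, a binding protein of IGF1, had 56.1, 35.5, 55.1 and 57.4 CPM in OCsCtr and 106, 79.4, 79.99 and 69.7 CPM in OCsEoS, a log2 fold change of 0.72 ± 0.14 (SE, adjusted p = 0.0007). Together with Igf1 it made up the 2 called genes, both higher, of the 8 tested genes of the IGF system. The median of that list was -0.28, and 1 member was lower at an adjusted p under 0.05, Igf2r, which clears IGF2, at -0.28 (adjusted p = 0.0456).

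**Figure D3:**
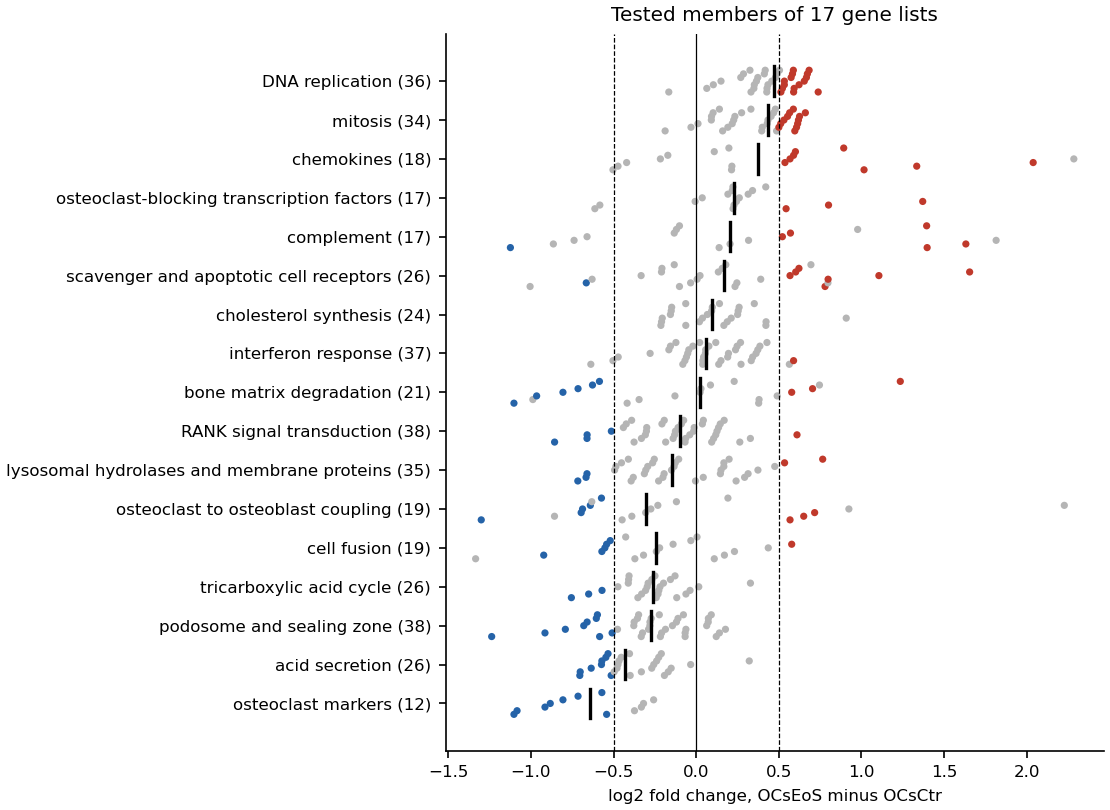
Each point is a tested member of 1 of 17 gene lists, with the number tested after the name, placed by its log2 fold change, OCsEoS minus OCsCtr. Red points were called higher, blue points called lower and gray points not called, dashed lines mark -0.5 and 0.5, and a black bar marks the median, which ran from -0.64 for osteoclast markers to 0.47 for DNA replication.

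Of 26 tested genes of the tricarboxylic acid cycle, 3 were called lower and 0 higher, 17 were lower and 0 higher at an adjusted p under 0.05, and the median was -0.26. Mdh1, the malate dehydrogenase of the cytosol, had 844, 1003, 1008 and 1012 CPM in OCsCtr and 602, 722, 644 and 496 CPM in OCsEoS, a log2 fold change of -0.65 ± 0.09 (SE, adjusted p = 6.6e-05), and it overlaps a neighbor on the opposite strand. Its OCsEoS libraries were all below the lowest OCsCtr library. In glycolysis 3 of 23 tested genes were called lower and 1 higher, against 4.11% and 3.63% of all genes tested. Ldhb, the lactate dehydrogenase subunit common in oxidative tissues, had 109.7, 135, 145 and 134 CPM in OCsCtr and 63.8, 73.6, 68.6 and 45.5 CPM in OCsEoS, a log2 fold change of -1.06 ± 0.13 (SE, adjusted p = 1.22e-05), and Aldoc, an aldolase, was at -0.75 ± 0.12 (SE, adjusted p = 0.000179). Slc16a3, the exporter of lactate, had 73.6, 79.3, 85.3 and 98.2 CPM in OCsCtr and 155, 160.0, 159.7 and 124 CPM in OCsEoS, a log2 fold change of 0.83 ± 0.16 (SE, adjusted p = 0.00087), with every OCsEoS library above every OCsCtr library. Of 24 tested genes of cholesterol synthesis 0 were called in either direction, with Msmo1, a sterol oxidase, at 0.35 (adjusted p = 0.000395) and Srebf2, the factor that controls this pathway, at -0.20 (adjusted p = 0.0766), and at an adjusted p under 0.05 alone 5 were higher and 1 lower.

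Of 28 tested antioxidant genes, which protect from oxidants, 3 were called higher and 0 lower, against 3.63% and 4.11% of all genes tested. At an adjusted p under 0.05, 12 were higher and 2 lower, against 11.8% and 11.2% of all. The called members besides Mgst1 were Gsta3 and Hmox1. Gsta3, another glutathione transferase, was at 1.03 ± 0.21 (SE, adjusted p = 0.00122). Hmox1, the heme oxygenase, was at 0.56 ± 0.08 (SE, adjusted p = 4.63e-05), and at 0.48 without OCsEoS 1 and 0.48 when length-adjusted. The phagocyte NADPH oxidase, the enzyme that makes superoxide, had 1 of 9 tested members called lower and 0 higher, too few to set against those shares. Rac2, the GTPase that switches it on, fell from 917 ± 46.4 to 604 ± 54.8 CPM (SD), by 0.60 on the log2 scale (adjusted p = 6.11e-06), whereas Cyba, a subunit of its membrane core, was at 0.36 (adjusted p = 0.000266), under the threshold. Slc11a1, the metal transporter of phagosomes that restricts bacteria, had 146, 129.8, 154 and 157 CPM in OCsCtr and 289, 239.5, 285 and 329 CPM in OCsEoS, a log2 fold change of 0.96 ± 0.08 (SE, adjusted p = 7.45e-07). Its highest OCsCtr library was far below the lowest OCsEoS library. In the iron and heme list, 2 of 21 tested genes were called higher, Slc11a1 and Hmox1, and 1 lower, Steap4.

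Chemokine genes were called in 1 direction. Of 18 tested, 8 were called higher and 0 lower, with a median of 0.38, and by the adjusted p alone 9 were higher and 1 lower. Ccl7, which draws monocytes through CCR2 (chromosome 11 from 82045712 to 82047525), had 3.92, 2.31, 3.33 and 2.95 CPM in OCsCtr and 15.4, 9.12, 12.1 and 14.8 CPM in OCsEoS, a log2 fold change of 2.04 ± 0.24 (SE, adjusted p = 1.12e-05). Ccl2, which acts on the same receptor (chromosome 11 from 82035571 to 82037453), had 20.9, 18.5, 23.996 and 20.6 CPM in OCsCtr and 61.8, 29.6, 55.7 and 65.1 CPM in OCsEoS, a log2 fold change of 1.34 ± 0.19 (SE, adjusted p = 6.42e-05). OCsEoS 2 was the lowest treated library for both genes and still above every OCsCtr library. Pf4, also known as CXCL4, and Ccl4, a chemokine of activated macrophages, rose by 0.89 ± 0.16 (SE, adjusted p = 0.000511) and 1.02 ± 0.27 (SE, adjusted p = 0.00973). Of 23 tested receptors for chemokines and other attractants 5 were called higher and 0 lower, and 3 were called higher without OCsCtr 2. By the adjusted p alone 6 of these receptors were higher and 3 lower. P2ry6, a receptor for UDP released by damaged cells, was at 0.60 ± 0.12 (SE, adjusted p = 0.00146).

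Macrophages bind and engulf particles with scavenger receptors. Of 26 tested scavenger and apoptotic cell receptors 7 were called higher and 1 lower. Stab1, which binds phosphatidylserine on dying cells, had 46.2, 32.8, 36.4 and 61.01 CPM in OCsCtr and 111, 92.7, 84.98 and 90.6 CPM in OCsEoS, a log2 fold change of 1.11 ± 0.16 (SE, adjusted p = 6.66e-05), and overlaps Nt5dc2 on the opposite strand. Mrc1, the mannose receptor, had 11.02, 7.15, 10.8 and 17.6 CPM in OCsCtr and 28.97, 20.3, 14.5 and 17.2 CPM in OCsEoS. Its log2 fold change was 0.80 ± 0.24 (SE, adjusted p = 0.0188), but the groups overlapped, because OCsCtr 4 exceeded OCsEoS 3 and 4, and the gene was not called without OCsCtr 2 or without OCsEoS 1 (0.63 and 0.59). Mfge8, a bridge between dying cells and integrins, was the member that fell, from 63.5 ± 5.14 to 40.04 ± 7.99 CPM (SD), at -0.66 ± 0.12 (SE, adjusted p = 0.000391). In the complement list 5 of 17 tested genes were called higher and 1 lower, and 3 were called higher without OCsCtr 2. C1qa had 21.3, 9.64, 12.7 and 23.4 CPM in OCsCtr and 65.96, 27.6, 45.7 and 37.1 CPM in OCsEoS and C1qc had 14.4, 8.13, 11.2 and 18.2 CPM in OCsCtr and 49.4, 31.4, 32.3 and 23.8 CPM in OCsEoS, log2 fold changes of 1.39 ± 0.27 (SE, adjusted p = 0.000786) and 1.40 ± 0.23 (SE, adjusted p = 0.000184). Both encode chains of C1q, which tags targets for uptake, and for both the lowest OCsEoS library was above the highest OCsCtr library, by a small margin for C1qa. C3ar1, the receptor for C3a, was at 0.57 ± 0.10 (SE, adjusted p = 0.000526), and at 0.48 without OCsCtr 2.

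Fc receptors for IgG moved in opposite directions. Of 7 tested 2 were called higher and 1 lower. Fcgr3, an activating receptor, had 28.5, 27.4, 28.4 and 37.4 CPM in OCsCtr and 65.1, 50.01, 51.2 and 47.5 CPM in OCsEoS, a log2 fold change of 0.81 ± 0.13 (SE, adjusted p = 0.00013), whereas Fcgrt, which recycles IgG, had 161, 188, 188 and 173 CPM in OCsCtr and 104, 129, 112 and 83.8 CPM in OCsEoS, a log2 fold change of -0.73 ± 0.10 (SE, adjusted p = 4.86e-05). Neither gene overlapped between the groups. Of 20 tested C-type lectins 4 were called higher and 0 lower. Clec4d, a receptor for fungal and mycobacterial glycolipids, had 238, 204, 225 and 214 CPM in OCsCtr and 454, 355, 397 and 426 CPM in OCsEoS, a log2 fold change of 0.89 ± 0.08 (SE, adjusted p = 8.58e-07), with no overlap between the groups. The number of lectins called was 2 without OCsEoS 1, and by the adjusted p alone 4 lectins were higher and 2 lower. MHC class II genes, which present antigen, had 4 of 16 tested members called higher and 0 lower. By the adjusted p alone 4 were higher and 1 lower. H2-Eb1, H2-Aa and H2-Ab1 were close to the threshold at 0.54 (adjusted p = 0.0031), 0.51 (adjusted p = 0.00152) and 0.51 (adjusted p = 0.00172), and 0 members were called when length-adjusted, 2 without OCsCtr 1, 1 without OCsCtr 3 and 1 without OCsEoS 2.

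Genes known to answer to IL-4 were examined because eosinophils release it. The study found that supernatant also reduced osteoclast formation from BMMs of IL-4Rα or STAT6 knockout mice, which cannot respond to IL-4. That assay was not analysed here. Of the 22 tested IL-4 response genes 4 were called higher and 1 lower, with a median of 0.13, and the number higher was 2 without OCsCtr 2. Besides Arg1 and Mrc1 they included Mgl2, a lectin of alternatively activated macrophages, which had 0.0347, 0.178, 0 and 0 CPM in OCsCtr and 0.605, 0.666, 1.54 and 1.66 CPM in OCsEoS. This level was below 2 CPM in every library and 0 in OCsCtr 3 and 4, and the fitted log2 fold change of 4.29 ± 1.08 (SE, adjusted p = 0.00666) rested on few counts. The member called lower was Il13ra1, at -0.57 ± 0.16 (SE, adjusted p = 0.0147), and its length-adjusted value is not given here. Other signal responses are given beside the 3.63% of all genes tested that were called higher and the 4.11% called lower. In the interferon response 1 of 37 tested was called higher and 0 lower, and by the adjusted p alone 3 were higher and 0 lower. Among NF-kB targets 1 of 21 was called higher and 1 lower, and by the adjusted p alone 1 was higher and 5 lower. In MAP kinase feedback 2 of 25 were called higher and 0 lower, and by the adjusted p alone 2 were higher and 4 lower. Ccnd1, a cyclin in the last of these lists, had 85.4, 55.7, 74.9 and 51.3 CPM in OCsCtr and 148, 106, 122 and 141 CPM in OCsEoS, a log2 fold change of 0.95 ± 0.14 (SE, adjusted p = 9.23e-05), and it overlaps Oraov1 on the opposite strand. In the TGF-beta response 3 of 19 tested genes were called lower and 2 higher. Tgfbr2, the receptor that binds TGF-beta, had 397, 396, 415 and 394 CPM in OCsCtr and 256, 278, 255 and 204 CPM in OCsEoS, a log2 fold change of -0.69 ± 0.08 (SE, adjusted p = 5.58e-06). Ltbp3, which stores latent TGF-beta, was at -0.87 ± 0.15 (SE, adjusted p = 0.000331).

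Genes of lipid mediator synthesis and of lipid carriers were counted next. Alox5ap, the partner of 5-lipoxygenase in leukotriene synthesis (chromosome 5 from 149264767 to 149288153), had 83.2, 87.2, 88.5 and 102 CPM in OCsCtr and 181, 159, 174 and 188 CPM in OCsEoS, a log2 fold change of 0.96 ± 0.08 (SE, adjusted p = 4.56e-07). Ephx2, the epoxide hydrolase that inactivates epoxy fatty acids, had 37.8, 45.9, 42.8 and 48.7 CPM in OCsCtr and 16.3, 25.3, 22.6 and 11.8 CPM in OCsEoS, a log2 fold change of -1.20 ± 0.16 (SE, adjusted p = 3.72e-05). The groups were apart for both. Over the eicosanoid list 2 of 26 tested genes were called higher and 1 lower, against 3.63% and 4.11% of all genes tested. Of 25 tested genes of lipid uptake and storage 4 were called higher and 1 lower, among them Fabp5, a fatty acid carrier, at 0.57 ± 0.09 (SE, adjusted p = 0.000161). Slc7a5, the importer of large neutral amino acids, was at 0.63 ± 0.11 (SE, adjusted p = 0.000266).

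Genes for cell division were called in 1 direction. Of 36 tested genes of DNA replication 15 were called higher and 0 lower, and of 34 tested genes of mitosis 12 were called higher and 0 lower, against the 3.63% of all genes called higher. At an adjusted p under 0.05 alone, 26 and 20 were higher and 0 and 0 lower, and the medians were 0.47 and 0.43. Pcna, the sliding clamp of DNA polymerase, had 323, 299, 314 and 298 CPM in OCsCtr and 472, 419.6, 502 and 574 CPM in OCsEoS, a log2 fold change of 0.67 ± 0.08 (SE, adjusted p = 7.73e-06). Tyms, which makes thymidylate, had 63.1, 57.4, 60.9 and 58.7 CPM in OCsCtr and 112, 79.4, 105 and 104 CPM in OCsEoS, a log2 fold change of 0.74 ± 0.09 (SE, adjusted p = 1.12e-05). Gins1, a part of the replicative helicase, and Ccne1, the cyclin that starts S phase, rose by 0.67 ± 0.13 (SE, adjusted p = 0.000984) and 0.68 ± 0.13 (SE, adjusted p = 0.00058). In mitosis, Birc5, which encodes survivin, had 97.9, 88.99, 87.003 and 89.4 CPM in OCsCtr and 148, 133, 143 and 150.3 CPM in OCsEoS, a log2 fold change of 0.66 ± 0.06 (SE, adjusted p = 1.35e-06), and the kinases Aurkb and Aurka rose by 0.62 ± 0.07 (SE, adjusted p = 1.12e-05) and 0.61 ± 0.09 (SE, adjusted p = 4.86e-05). For each of these 7 genes the OCsEoS libraries were all above the OCsCtr libraries. The list medians were 0.50, 0.28, 0.46 and 0.65 above the mean of OCsCtr for DNA replication and 0.47, 0.26, 0.35 and 0.57 for mitosis in the 4 OCsEoS libraries. The number of mitosis genes called was 5 without OCsEoS 4, the library in which this list was highest.

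**Figure D4:**
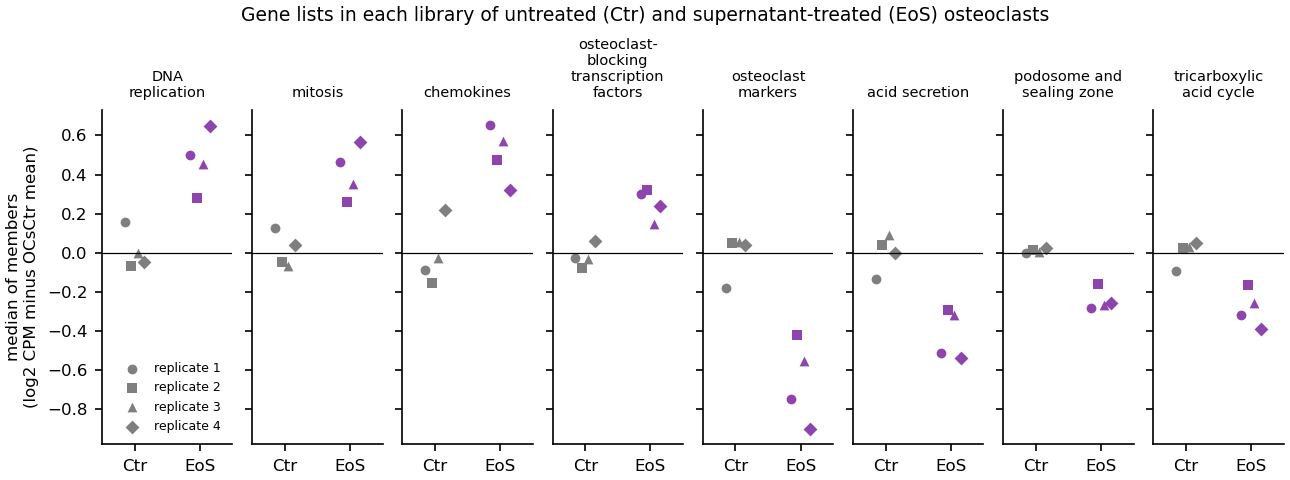
Median over the tested members of each of 8 lists in each library, as log2 CPM less the mean of the 4 OCsCtr libraries for each gene, with 1 marker shape for each replicate number. The OCsEoS libraries lie above the OCsCtr libraries in the 4 lists on the left and below them in the 4 on the right, and OCsEoS 2 is the least moved of the treated libraries for osteoclast markers and DNA replication.

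Markers of other cells were read to see what the cultures held. Of 33 tested genes of monocyte and macrophage identity 2 were called higher and 1 lower (median 0.06), and their summed level was from 7094 to 7985 CPM in OCsCtr and from 6793 to 8037 CPM in OCsEoS. Adgre1, which encodes F4/80, had 233, 223, 243 and 293 CPM in OCsCtr and 417, 359.7, 353 and 334 CPM in OCsEoS, a log2 fold change of 0.56 ± 0.10 (SE, adjusted p = 0.000297). Of 14 neutrophil markers 0 were called, with summed levels from 367 to 521 CPM in OCsCtr and from 412 to 483 CPM in OCsEoS. Of 8 markers of B or plasma cells 2 were called higher, Igkc (14.5 CPM in OCsCtr and 25.1 CPM in OCsEoS) and Jchain (3.08 CPM in OCsCtr and 6.23 CPM in OCsEoS), both with overlapping libraries, and the summed level was from 35.4 to 88.01 CPM in OCsCtr and from 63.97 to 84.8 CPM in OCsEoS. None was called of 5 tested basophil or mast cell, 5 T or NK cell, 8 dendritic cell and 6 erythroid or megakaryocyte markers, and 1 of 6 osteoblast or stromal markers was called lower (Runx2, 3.12 CPM in OCsCtr and 1.54 CPM in OCsEoS). The part of such cells in the changes above was not tested.

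Of the granule transcripts of eosinophils, Prg2 was called lower than in the untreated cultures. Prg2, which encodes the major basic protein of eosinophil granules (chromosome 2 from 84980461 to 84983632), had 3.85, 7.83, 6.39 and 4.04 CPM in OCsCtr and 0.249, 1.79, 1.22 and 0 CPM in OCsEoS, a log2 fold change of -2.74 ± 0.56 (SE, adjusted p = 0.00136). Prg2 was thus higher in the cultures to which no eosinophil product had been added, and the cultures with added eosinophils had 4.21, 5.93, 7.25 and 4.57 CPM. The source of the Prg2 transcripts in OCsCtr was not tested. Prg3, the gene of a related granule protein, had 5, 25, 3 and 7 counts in OCsCtr and 0 in all 4 OCsEoS libraries (exact permutation test, two-sided, p = 0.0286, the smallest p that 4 against 4 allow), and the 25 counts of OCsCtr 2 made up most of its level. Epx, which encodes eosinophil peroxidase, had 0, 3, 6 and 0 counts in OCsCtr and 0 in OCsEoS (p = 0.429 by the same exact test). Ear1 had 0, 6, 3 and 0 against 0 (exact p = 0.429) and Ear6 0, 3, 16 and 6 against 0 (exact p = 0.143), none under 0.05. The surface marker Siglecf was low in both groups (0.312, 0.653, 0.530 and 0.218 CPM in OCsCtr and 0.748, 1.30, 0.237 and 1.02 CPM in OCsEoS) and Alox15 likewise (0.104, 0.148, 0.294 and 0.653 CPM in OCsCtr and 0.641, 1.13, 0.178 and 0.729 CPM in OCsEoS), with log2 fold changes of 0.94 ± 0.48 (SE, adjusted p = 0.179) and 1.14 ± 0.52 (SE, adjusted p = 0.129), and Il5ra was 0 in 6 of the 8 libraries. Ear2, Ccr3 and Cebpe were at -1.14 (adjusted p = 0.561), -0.23 (adjusted p = 0.0442) and 0.31 (adjusted p = 0.422), none of them called. Over the list, 1 of 7 tested eosinophil markers was called, and the summed level of all 12 was from 59.7 to 77.2 CPM in OCsCtr and from 53.1 to 60.8 CPM in OCsEoS, most of it Ccr3.

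OCsEoS and OCsEo were compared directly to find where the soluble products and the eosinophils themselves differed. In this contrast the controls entered only through the shared estimate of the spread, and 10 genes (0.0731%) were higher and 42 (0.307%) lower in OCsEoS than in OCsEo. A fit of these 8 libraries alone called 9 and 35, of which 7 and 32 were shared. Of the 10 and 42, 0 and 12 were called with each single library left out, so most of these calls were lost when some single library was left out. The 10 became 5 without OCsEo 1, 4 without OCsEo 2, 6 without OCsEo 3, 5 without OCsEoS 1, 1 without OCsEoS 3 and 6 without OCsEoS 4. The 42 became 23 without OCsEo 2, 27 without OCsEo 4 and 16 without OCsEoS 3. Cbr2, a carbonyl reductase, had 15.02, 10.2, 10.4 and 6.24 CPM in OCsEoS and 2.51, 2.10, 2.46 and 5.72 CPM in OCsEo, a difference of 1.72 ± 0.34 (SE, adjusted p = 0.0228) on the log2 scale. It was not called without OCsEo 1, 2 or 3 or without OCsEoS 1 or 3. Folr2 had 59.8, 37.4, 42.5 and 66.9 CPM in OCsEo and so lay between the untreated and the supernatant cultures, with a difference of 0.87 ± 0.19 (SE, adjusted p = 0.0373), and it was lost without OCsEo 1, 2 or 3, without OCsEoS 1 or 3, with DESeq2 and when length-adjusted. Nox1, an oxidase that makes superoxide, had 13.2, 12.7, 13.3 and 16.1 CPM in OCsEoS and 9.77, 6.81, 7.43 and 8.63 CPM in OCsEo, a difference of 0.76 ± 0.14 (SE, adjusted p = 0.0134), lost without OCsEo 2. H2-Eb1 was at 0.55 ± 0.12 (SE, adjusted p = 0.043) and was lost without any one of the 8 libraries. Rpl17, a ribosomal protein gene with many near-identical copies in the genome, had 478, 815, 669 and 231 CPM in OCsEoS and 215, 202, 248.6 and 206 CPM in OCsEo, a difference of 1.33 ± 0.25 (SE, adjusted p = 0.0148), with OCsEoS 4 close to the other group, and the call was lost without OCsEo 1 or 2 and without OCsEoS 3.

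In the other direction, several genes were higher with eosinophils present than with their supernatant. Mmp12 had 203, 170.2, 179 and 199 CPM in OCsEo, a difference of -0.64 ± 0.12 (SE, adjusted p = 0.0148), so that the rise over untreated cultures was smaller with supernatant, and this call was lost without OCsEoS 3. Fabp5 had 145, 109, 146 and 129 CPM in OCsEo, a difference of -0.63 ± 0.09 (SE, adjusted p = 0.0012). Npy, which encodes neuropeptide Y, had 19.5, 13.6, 13.8 and 19.3 CPM in OCsEoS and 37.2, 30.5, 39.1 and 42.7 CPM in OCsEo, a difference of -1.18 ± 0.16 (SE, adjusted p = 0.000561). Fabp5 and Npy were called whichever library was left out. Serpinb2, a protease inhibitor of activated macrophages, had 1.96, 2.87, 2.08 and 2.04 CPM in OCsEoS and 7.14, 7.68, 8.82 and 5.58 CPM in OCsEo, a difference of -1.71 ± 0.28 (SE, adjusted p = 0.00496). Ckmt1 was lower with supernatant than with eosinophils, at 13.9, 20.5, 11.9 and 16.6 CPM in OCsEo and a difference of -1.02 ± 0.20 (SE, adjusted p = 0.0195), lost without OCsEo 2. The mitochondrially encoded mt-Nd6 had 61.1, 63.7, 63.3 and 61.5 CPM in OCsEoS and 155, 174, 161 and 163 CPM in OCsEo, a difference of -1.39 ± 0.12 (SE, adjusted p = 3.09e-06), but it lies opposite mt-Nd5 and the strand setting of the counting is not stated. Transcripts that eosinophils carry also differed. Alox15 had 9.68, 11.4, 16.7 and 6.24 CPM in OCsEo, a difference of -4.03 ± 0.44 (SE, adjusted p = 6.26e-05), and Il5, which the donor mice carry as a transgene, had 2.24, 2.50, 4.18 and 1.52 CPM in OCsEo and 0 counts in every OCsEoS library, at least 24.4-fold lower against a floor of 3 counts in 1 library. Prg2 differed by -2.73 ± 0.56 (SE, adjusted p = 0.0261), lost without OCsEo 2 or 3 and without OCsEoS 1 or 3.

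**Figure D5:**
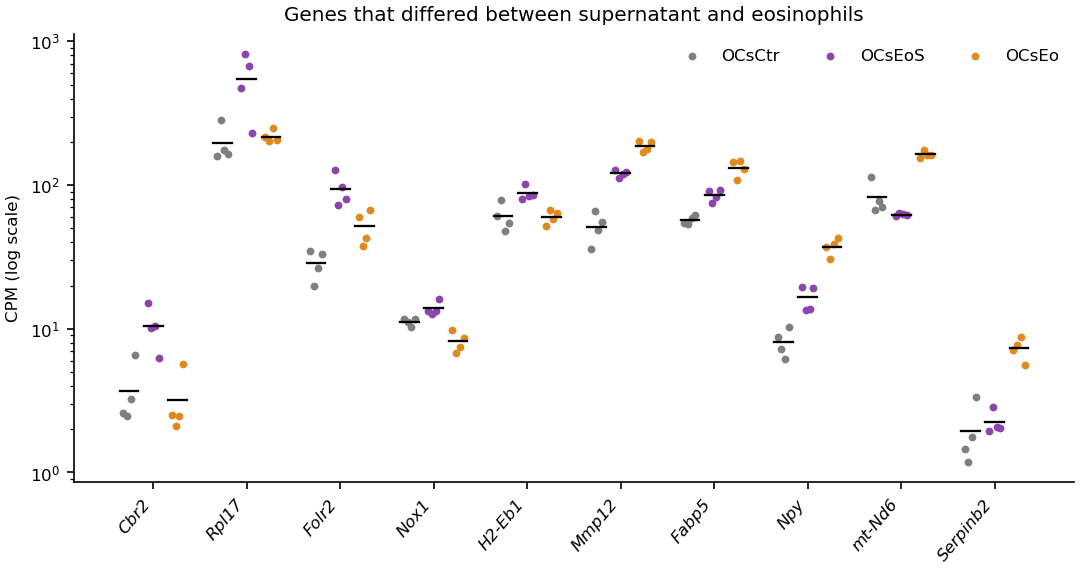
CPM on a log scale of 10 genes in the 4 libraries each of OCsCtr, OCsEoS and OCsEo, with a black bar at each group mean. Cbr2, Rpl17, Folr2, Nox1 and H2-Eb1 were called higher in OCsEoS than in OCsEo, and Mmp12, Fabp5, Npy, mt-Nd6 and Serpinb2 were called lower.

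Promoter sequences were searched for motifs of factors that act in osteoclasts and macrophages. RefSeq promoters of GRCm38.p6, 250 bases before to 50 bases after a start, were at hand for 346 of the 496 genes called higher, 394 of the 562 called lower and 9696 of all genes tested. The AP-1 motif TGANTCA, bound by FOS and JUN proteins below RANK, was present on either strand in 5.78% of promoters of genes called higher, 8.88% of genes called lower and 6.50% of all genes tested. The STAT motif, TTC and GAA with 4 bases between them, which STAT6 binds after IL-4, was in 8.67%, 3.81% and 6.37%. The interferon motif, GAAA repeated with 2 bases between, was in 5.20%, 3.30% and 3.83%, and the lysosomal motif TCACGTGA, bound by MITF and TFE factors, in 1.16%, 2.03% and 2.16%. The cyclic AMP motif TGACGTCA was in 3.76%, 3.05% and 3.60%, and TGGAAA, the core bound by NFAT, in 19.9%, 20.3% and 19.5%. The PPAR motif, AGGTCA repeated with 1 base between, was in 0% of either called group and 0.0516% of all. These shares are a description with no test, the motifs were searched on both strands, and a match is no evidence of binding. To show the AP-1 motif in genes of either direction, the 120 bases before a RefSeq start are given from GRCm38.p6 for genes of the text whose window holds TGANTCA and no annotated exon, with the motif in capitals. RefSeq lists 2 starts each for Folr2 and Mmp12, and the start with the motif is shown, while the promoter of the other has none. The windows of Mmp12 and Prdm1 lie inside the span that the count table gives for these genes. Folr2 (minus strand, chr7:101845332-101845451), Plaur (plus strand, chr7:24462363-24462482) and Mmp12 (plus strand, chr9:7347254-7347373) rose, and Prdm1 (minus strand, chr10:44458749-44458868) fell. The motif begins 74, 69, 44 and 48 bases before the start, in that order.
Folr2: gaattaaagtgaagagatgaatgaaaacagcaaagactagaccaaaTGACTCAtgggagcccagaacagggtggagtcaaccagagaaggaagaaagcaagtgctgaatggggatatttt
Plaur: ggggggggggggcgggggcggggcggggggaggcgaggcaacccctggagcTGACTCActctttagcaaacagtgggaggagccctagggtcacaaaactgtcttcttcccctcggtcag
Mmp12: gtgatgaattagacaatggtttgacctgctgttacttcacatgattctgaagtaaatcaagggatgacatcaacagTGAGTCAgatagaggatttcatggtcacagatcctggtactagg
Prdm1: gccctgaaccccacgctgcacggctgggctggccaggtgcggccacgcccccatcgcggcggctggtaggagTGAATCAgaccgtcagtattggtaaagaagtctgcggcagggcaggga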

How the data were processed

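Bulk RNA-seq. was made by the authors from day 3 osteoclast cultures. Per the labels and the study's methods, reads were cleaned with fastp, aligned to GRCm38/mm10 with HISAT2 2.0.5 and counted per gene with featureCounts. The deposited values are raw counts of whole reads, without normalization. The annotation release and the strand setting are not given in the sources used here, so counts of overlapping genes may include reads of a neighbor.

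From these counts, genes were kept by filterByExpr (minimum count 10), scaled by TMM, and fitted in 1 model of 12 libraries in 3 groups with edgeR 4.0.16 (R 4.3.3), using the quasi-likelihood F-test. Adjusted p-values are Benjamini-Hochberg over all 13681 genes tested, SE is that of the log2 fold change, and CPM are TMM-scaled. Floors cover counting error only. All pairs of replicates differed by more than sampling noise. The p-values rest on the spread between replicates within all 3 groups, OCsEo included, with information shared over genes. Whether each OCsEoS culture had its own batch of supernatant is not stated in the sources used here. Genes without enough counts were compared by exact permutation tests. Lists were counted, with no set test. DESeq2 1.42.0, other scalings and filters, a replicate block, a gene length correction and each library left out were tried as alternatives. The model was checked on simulated data.

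Genes were named by a rule, namely the 15 largest rises and falls among called genes with at least 2 CPM and separated groups, up to 4 called members of each list in each direction or otherwise its 2 most abundant members, all osteoclast and eosinophil markers, and up to 10 genes in each direction between OCsEoS and OCsEo. Not every gene that the rule admits is printed, some are not reported here, and a few further marker genes were named after their values were seen. Lists and comparison were chosen with earlier results of these data known. The authors' other assays were not analysed here.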

Additional observations from a re-analysis of the deposited data

Results flagged for a closer look

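Of 208 sets of 4 values (each gene considered for the text, in OCsCtr and in OCsEoS), 11 held a library far from the other 3, about the 1 in 20 that chance gives by this measure. In OCsCtr, Fcgr3 was at 37.4 CPM in replicate 4 and from 27.4 to 28.5 CPM in the others, Tgfbr2 at 415 CPM in replicate 3 and from 394 to 397 in the others, Mdh1 at 844 CPM in replicate 1 and from 1003 to 1012 in the others, Igfbp4 at 35.5 CPM in replicate 2 and from 55.1 to 57.4 in the others, Tnfrsf11a at 112 CPM in replicate 2 and from 118 to 118 in the others, and Rpl17 at 286 CPM in replicate 2 and from 159 to 175 in the others. In OCsEoS, Srebf2 was at 156 CPM in replicate 2 and from 123 to 128 in the others, Slc16a3 at 124 CPM in replicate 4 and from 155 to 160.0 in the others, Hmox1 at 95.3 CPM in replicate 1 and from 76.1 to 78.2 in the others, Nox1 at 16.1 CPM in replicate 4 and from 12.7 to 13.3 in the others, and Serpinb2 at 2.87 CPM in replicate 2 and from 1.96 to 2.08 in the others.

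The response to supernatant differed from the response to eosinophils, by edgeR's test of OCsEoS minus OCsEo, at log2 differences of 1.72 ± 0.34 (SE, adjusted p = 0.0228) for Cbr2, 1.33 ± 0.25 (SE, adjusted p = 0.0148) for Rpl17, 0.87 ± 0.19 (SE, adjusted p = 0.0373) for Folr2, 0.76 ± 0.14 (SE, adjusted p = 0.0134) for Nox1 and 0.55 ± 0.12 (SE, adjusted p = 0.043) for H2-Eb1. The differences were -4.03 ± 0.44 (SE, adjusted p = 6.26e-05) for Alox15, -2.73 ± 0.56 (SE, adjusted p = 0.0261) for Prg2, -1.71 ± 0.28 (SE, adjusted p = 0.00496) for Serpinb2, -1.39 ± 0.12 (SE, adjusted p = 3.09e-06) for mt-Nd6, -1.18 ± 0.16 (SE, adjusted p = 0.000561) for Npy, -1.02 ± 0.20 (SE, adjusted p = 0.0195) for Ckmt1, -0.64 ± 0.12 (SE, adjusted p = 0.0148) for Mmp12 and -0.63 ± 0.09 (SE, adjusted p = 0.0012) for Fabp5. In OCsEo, transcripts of the eosinophils were present in the culture, so that a difference in osteoclasts and a difference in the cells sampled cannot be told apart.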

How the results depend on the processing

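Against OCsCtr, the counts of 496 genes higher and 562 lower moved beyond 1.5 times only without a fold change threshold (1620 and 1531) and when the threshold of 0.5 was made part of the test (glmTreat, 27 and 28). With each library left out they were 413 to 623 and 436 to 722. Against OCsEo, the 10 genes higher became 32 without a filter on low counts, 21 with DESeq2 on all libraries, 19 with DESeq2 on the groups compared, 17 with a replicate block, 0 under glmTreat and 1 to 12 with a library left out. The 42 lower became 68 without a fold change threshold, 68 without a filter, 3 under glmTreat and 16 to 50 with a library left out. Of the 89 genes considered for the text and called against OCsCtr, 77 were called under every alternative other than glmTreat, 9 were lost with the gene length trend taken out, 1 with DESeq2 on the groups compared, 0 with a replicate block, 11 without at least 1 library and 59 under glmTreat, and 0 changed sign. Deviations of libraries with the same replicate number in OCsCtr and OCsEoS had correlations of 0.064, 0.072, 0.040 and -0.025. Of the 4 OCsCtr libraries, 3 correlated best with the OCsEoS library of their own number. Whether equal numbers mark cells of the same mice is not stated, so the numbers were not taken as pairs. A replicate block gave 509 and 599 calls against OCsCtr and 17 and 50 against OCsEo. With 4 libraries a group, single genes called near the threshold of 0.5 are uncertain.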

Other observations

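Among erythroid transcripts too low for the fit, Hba-a2, an alpha globin gene, had 7, 6, 12 and 4 counts in OCsCtr and 0, 0, 2 and 0 in OCsEoS (exact permutation test, two-sided, p = 0.0286, the smallest p that 4 against 4 allow), and 0 in all 4 OCsEo libraries. Its near-identical copy Hba-a1 was at 1.64 CPM in OCsCtr and 2.68 CPM in OCsEoS and was not called (adjusted p = 0.191), and reads of the copies may be split between them.

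By biotype, 468 of 12207 protein-coding genes tested rose and 538 fell, and 4 of 222 lincRNA genes rose and 5 fell. Of 709 processed pseudogenes tested 16 rose and 8 fell, and their counts can include reads of the parent genes.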
